A study of Mus musculus with 8 samples.

Results

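The genes described here are 40 members of the cell cycle and DNA replication machinery, chosen by symbol from the 17457 genes listed for mouse kidney cortex. They comprise 5 cyclins of G1, 4 cyclin-dependent kinases (CDKs), 3 cyclins of S phase and mitosis, 3 CDK inhibitors, the transcription factor E2f1, 9 genes of origin licensing and firing, 4 genes of the replication fork and nucleotide supply, and 11 genes of mitosis and anaphase. They were picked by name and not by a threshold on these values, with earlier results of these data known. All 40 reached at least 0.1 FPKM in 4 or more libraries, which was the minimum for testing, and 38 did so in all 8. Cdc6 did so in 7 libraries and Bub1 in 5.

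RNA came from wild-type C57BL/6J mice fed for 3 days either a high Pi diet (1.2% phosphate, 4 mice) or a normal Pi diet (0.6% phosphate, 4 mice), with 1 library per mouse. The study's methods describe its mice as age-matched males of 8 to 16 weeks and give no separate ages for these animals. The labels name no transgene or drug. The comparison asked how dietary Pi loading altered kidney gene expression. Values are FPKM, fragments per kilobase of transcript scaled to the library total, so levels can be compared between genes per unit of length.

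An adult kidney holds few dividing cells, and its tubule cells can re-enter the cycle after injury. In a cell that enters the cycle, D-type cyclins with Cdk4 or Cdk6 inactivate the retinoblastoma protein and release E2F factors, which switch on the genes of DNA replication. Genes of mitosis are switched on later, in G2, largely through the MuvB complex with B-Myb and FoxM1. These act at CHR elements and nearby CCAAT boxes bound by NF-Y. In bulk tissue, fewer cycling cells and less RNA per cycling cell cannot be told apart.

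The tissue matched its label: all 12 proximal tubule markers were detected, with a summed level of 5230 to 6120 FPKM in high Pi mice and 6290 to 7080 FPKM in normal Pi mice. Estimated depth was 13000000 to 14000000 fragments per library. The library of high Pi replicate 1 was the most distant from the mean of the other mice on its diet. Its root mean square log2 distance was 0.29, against 0.139 to 0.207 for the other 7, so results are given with and without that mouse. It held the highest value of the 8 libraries in 32.2% of the 14225 genes tested, against 4.79% to 15.8% for each of the others. Summed leukocyte markers (10 genes) reached 503 FPKM in high Pi replicate 1, against 326 to 458 FPKM in the other high Pi mice and 320 to 369 FPKM in normal Pi mice. Summed tubule injury markers (9 genes) reached 998 FPKM in it, against 558 to 706 FPKM in the other high Pi mice and 677 to 810 FPKM in normal Pi mice. Endothelial markers (9 genes, of which 8 were highest in high Pi replicate 1) summed to 346 FPKM there, against 281 to 324 FPKM in the other high Pi mice and 249 to 288 FPKM in normal Pi mice. Podocyte markers (5 genes) summed to 141 FPKM there, against 103 to 105 FPKM in the other high Pi mice and 105 to 117 FPKM in normal Pi mice. In the remaining lists another mouse was highest. Loop to collecting duct markers (8 genes) summed to 1720 FPKM in high Pi replicate 1. They gave 1370 to 1770 FPKM in the other high Pi mice and 1400 to 1570 FPKM in normal Pi mice. In that order, fibroblast and mural markers (9 genes) gave 74.4, 54.2 to 82.1 and 55.4 to 63.9 FPKM. Adipocyte markers (5 genes) gave 54.5, 43.6 to 295 and 33.9 to 102 FPKM. Erythroid markers (5 genes) gave 4096, 2920 to 5590 and 2010 to 5210 FPKM. No gene of these lists was at 0 in all libraries, and their part in the results below was not tested.

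Promoter motifs of the early and the late programme were looked up in the members, and 34 of the 40 matched the RefSeq promoter table (GRCm38.p6). Aurkb, Ccna2, Ccnd1, Ccnd2, Ccne2 and Mcm4 were not matched. In the 300 bases from 250 before to 50 after the listed start, read on both strands, the NF-Y box (CCAAT) and the CHR element (TTTGAA) occurred together in 8 of the 10 matched mitosis genes and in 7.12% of all 27025 promoters. The E2F site (TTTNNCGC) occurred in 6 of 8 matched origin genes (75.0%) and in 5.27% of all promoters, and in 0 of the 10 mitosis genes. The motifs did not divide the members cleanly. NF-Y boxes also occurred in 6 of the 8 origin genes (75.0%), beside 37.9% of all promoters. A CHR element occurred in 2 of the 8 (Cdc45 and Mcm2, 25.0%), near the 18.1% of all promoters. The E2F site occurred in 1 of 4 fork genes and in neither E2f1 nor the matched G1 cyclins. For E2f1, Cdc6, Aurka and Cdk6 the bases searched lay wholly inside the listed span of the gene. Bases before the outermost start of these genes were thus not searched. These matches are descriptions of letters and not measured sites. The 120 bases before the start of 3 genes active in mitosis and of Mcm6, a subunit of the replicative helicase, are shown because they carry these arrangements. Capitals mark matches to the 3 motifs on either strand, so ATTGG and TTCAAA are the reverse complements of the NF-Y box and the CHR element. Some GENCODE transcripts of Cdk1 and Cdc20, and some RefSeq transcripts of Top2a, start inside the stretch shown.
Cdk1, chr10:69352913-69353032, minus strand: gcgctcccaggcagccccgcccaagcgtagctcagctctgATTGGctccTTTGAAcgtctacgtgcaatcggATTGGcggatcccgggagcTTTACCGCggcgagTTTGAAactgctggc
Top2a, chr11:99024190-99024309, minus strand: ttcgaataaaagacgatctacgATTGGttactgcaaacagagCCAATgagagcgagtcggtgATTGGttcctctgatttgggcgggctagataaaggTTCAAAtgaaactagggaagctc
Cdc20, chr4:118437344-118437463, minus strand: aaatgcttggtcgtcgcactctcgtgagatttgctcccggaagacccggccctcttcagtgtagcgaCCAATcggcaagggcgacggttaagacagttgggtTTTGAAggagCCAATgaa
Mcm6, chr1:128359706-128359825, minus strand: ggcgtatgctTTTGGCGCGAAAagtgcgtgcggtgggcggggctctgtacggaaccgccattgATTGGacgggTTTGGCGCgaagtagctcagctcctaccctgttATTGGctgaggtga
The Cdk1 stretch holds all 3 motifs, those of Top2a and Cdc20 hold the NF-Y box and the CHR element, and that of Mcm6 holds E2F sites, of which 2 overlap, with NF-Y boxes.

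With all 8 mice, no member differed between diets after adjustment over the 14225 genes. Past an adjusted p of 0.05 by limma-trend there were 0 of 40 members, beside 28 of all genes tested (0.197%), and 1 member, Ccnd1, when libraries were weighted by their estimated quality, where 2.36% of all genes passed. At an unadjusted p under 0.05 there was 1 member, the G1 cyclin Ccnd1, which was lower on the high Pi diet, beside 9.06% of all genes in either direction and 4.63% lower. Log2 fold changes are those of FPKM + 1 and positive where high Pi mice were higher. Their median was 0.04 over the members and -0.01 over all genes, with 24 members above 0 and 16 below, where 52.9% of all genes lay below 0. On that scale the 95% interval of the difference lay within 1.5-fold in either direction for 33 of 40 members. It did so for 13477 of the 14225 genes tested, which is a larger share. The scale understates fold changes of genes near or below 1 FPKM. The exceptions among the members were Ccnd1, Ccna2, Ccnb2, Rrm2, Cdc20, Aurka and Ube2c.

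Without high Pi replicate 1, log2 fold changes were negative for 32 of 40 members, against 59.7% of all genes, though many were close to 0, and the sign differed from that with all 8 mice for 16 members. The median was -0.10 over the members and -0.03 over all genes. Only Ccnd1 passed the adjusted threshold among the members, beside 353 of all genes (2.48%). At an unadjusted p under 0.05, 7 members were lower, beside 11.4% of all genes, and 1, the G1 kinase Cdk6, was higher, beside 5.95%.

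**Figure D1:**
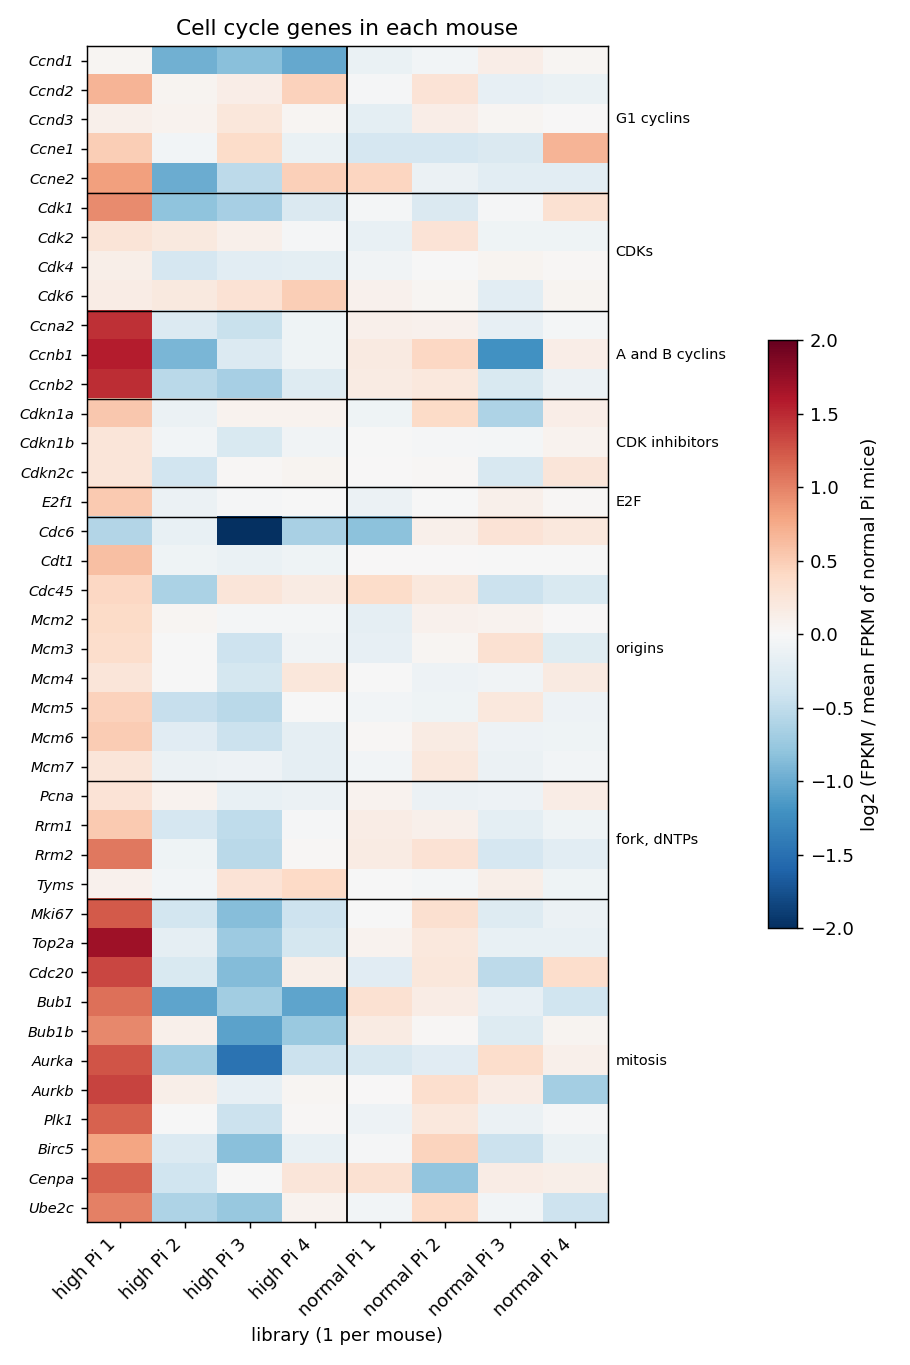
Heat map of the 40 members (rows, grouped by role) in each mouse (columns, 4 high Pi then 4 normal Pi), coloured by log2 of FPKM over the mean FPKM of the 4 normal Pi mice. The column of high Pi replicate 1 is red through the A and B cyclins and the mitosis genes, where the other high Pi mice are mostly blue, and Ccnd1 is blue in high Pi replicates 2, 3 and 4 but not in 1.

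The G1 cyclins receive growth signals and start the cycle. Ccnd1 encodes cyclin D1, the partner of Cdk4 and Cdk6, and lies on chr7:144929931-144939831 (GRCm38.p6, gene ID 12443). Its FPKM was 55.59, 27.85, 30.43 and 26.51 in high Pi mice, against 49.47, 52.26, 59.31 and 55.27 in normal Pi mice. The first high Pi mouse lay within the range of the normal Pi mice, and the other 3 high Pi mice lay far below it. The mean was 35.1 ± 13.8 FPKM in high Pi mice and 54.1 ± 4.22 FPKM in normal Pi mice (SD, n = 4 each), a ratio of 0.649. The log2 fold change was -0.67 ± 0.187 (SE), at an adjusted p of 0.222 by limma-trend. It stayed between -0.71 and -0.56 when any other mouse was left out. Without high Pi replicate 1, the high Pi mean was 28.3 ± 1.99 FPKM (SD, n = 3), a ratio of 0.523 to normal Pi mice, with a log2 fold change of -0.91 (adjusted p = 0.000359 by limma-trend). The call was also made with all 8 mice under library weights, which gave that mouse the lowest weight (-0.89, adjusted p = 0.00371), so it rests on how far that mouse is counted. The values correspond to an estimated 2543, 1279, 1426 and 1314 fragments in high Pi mice and 2218, 2363, 2755 and 2443 in normal Pi mice, so counting error is small beside the spread between mice.

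Ccnd3, which encodes cyclin D3, was the member with the highest mean, 81.9 FPKM over all 8 mice. Its FPKM was 84.51, 82.71, 92.06 and 80.89 in high Pi mice, against 68.75, 86.37, 80.70 and 79.22 in normal Pi mice. The diets overlapped, with a log2 fold change of 0.11 ± 0.076 (SE), at an adjusted p of 0.723 by limma-trend. Ccnd2, the third D-type cyclin, averaged 1.31 ± 0.264 FPKM in high Pi mice and 1.03 ± 0.147 FPKM in normal Pi mice (SD, n = 4 each). The E-type cyclins, which activate Cdk2 at the start of S phase, were below 1 FPKM in every mouse: Ccne1 had 0.38 to 0.59 FPKM in high Pi mice and 0.33 to 0.67 FPKM in normal Pi mice. Ccne2 had 0.18 to 0.63 FPKM in high Pi mice and 0.31 to 0.48 FPKM in normal Pi mice. The lower values of Ccnd1 without high Pi replicate 1 were thus not seen in the means of the other D-type cyclins.

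**Figure D2:**
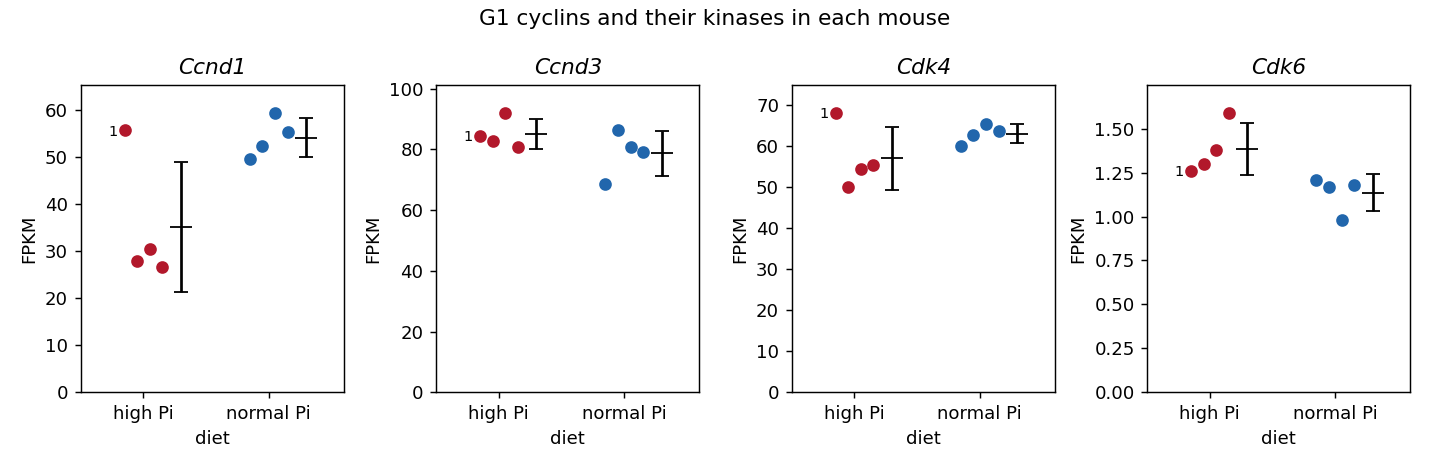
FPKM of 2 D-type cyclins and their kinases in each mouse (points, high Pi left and normal Pi right, the digit 1 marking high Pi replicate 1), with the mean and SD of the 4 mice as bars and axes from 0. For Ccnd1 and Cdk4, high Pi replicates 2, 3 and 4 lie below all 4 normal Pi mice and replicate 1 does not, and for Cdk6 all 4 high Pi mice lie above all 4 normal Pi mice.

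Among the kinases, Cdk4 drives G1 with the D-type cyclins and was the most abundant. Its FPKM was 67.99, 49.99, 54.36 and 55.22 in high Pi mice, against 59.92, 62.59, 65.34 and 63.69 in normal Pi mice. As for Ccnd1, 3 high Pi mice lay below every normal Pi mouse, but high Pi replicate 1 was here the highest of all. The log2 fold change was -0.15 (adjusted p = 0.658 by limma-trend), and without that mouse it was -0.24 (adjusted p = 0.0631). Cdk6, the other partner of the D-type cyclins, had 1.26, 1.30, 1.38 and 1.59 FPKM in high Pi mice, against 1.21, 1.17, 0.98 and 1.18 FPKM in normal Pi mice. It was the only member whose diets did not overlap with all 8 mice, beside 4.91% of all genes, and it did not pass the test, with a log2 fold change of 0.16 (adjusted p = 0.606 by limma-trend). Cdk2, which acts with cyclins E and A, averaged 4.31 ± 0.368 FPKM in high Pi mice and 3.92 ± 0.564 FPKM in normal Pi mice (SD, n = 4 each).

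Cdk1 is the kinase that drives mitosis with cyclins A and B. Its FPKM was 1.92, 0.57, 0.63 and 0.82 in high Pi mice, against 0.97, 0.82, 0.98 and 1.23 in normal Pi mice, or an estimated 113, 32, 37 and 49 fragments against 54, 46, 58 and 71. The first high Pi mouse was above every other mouse, and replicates 2 and 3 were below every normal Pi mouse. The log2 fold change was -0.05 with all mice (limma-trend adjusted p = 0.962) and -0.26 without high Pi replicate 1 (adjusted p = 0.18).

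The cyclins of S phase and mitosis each had their highest value in high Pi replicate 1. Ccna2 encodes cyclin A2, and its FPKM was 3.46, 1.04, 0.93 and 1.19 in high Pi mice, against 1.35, 1.34, 1.13 and 1.22 in normal Pi mice. Ccnb2 encodes cyclin B2, and its FPKM was 3.53, 0.88, 0.80 and 1.07 in high Pi mice, against 1.42, 1.47, 1.03 and 1.17 in normal Pi mice. In both, high Pi replicate 1 stood well above all other mice. The mean of Ccna2 was 1.65 ± 1.21 FPKM in high Pi mice and 1.26 ± 0.105 FPKM in normal Pi mice (SD, n = 4 each), with a log2 fold change of 0.14 (adjusted p = 0.916 by limma-trend). Without that mouse the log2 fold change was -0.14 for Ccna2 and -0.24 for Ccnb2, neither past the adjusted threshold. Ccnb1, cyclin B1, had 1.51 FPKM in high Pi replicate 1, against 0.27 to 0.48 FPKM in the other high Pi mice and 0.22 to 0.68 FPKM in normal Pi mice, so the other high Pi mice lay inside the normal Pi range.

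The 11 genes of mitosis and anaphase all had their highest value in high Pi replicate 1. Mki67 encodes the Ki-67 protein used to stain cycling cells, and its FPKM was 2.24, 0.74, 0.53 and 0.72 in high Pi mice, against 0.95, 1.19, 0.80 and 0.88 in normal Pi mice. Top2a, the topoisomerase that untangles sister chromatids, had 1.99, 0.54, 0.37 and 0.48 FPKM in high Pi mice, against 0.64, 0.71, 0.55 and 0.55 FPKM in normal Pi mice. In both genes high Pi replicate 1 was the highest mouse and the other 3 high Pi mice were below all normal Pi mice, so the high Pi mean joins values from both sides of the normal Pi range.

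Aurka, a kinase of spindle assembly, had 2.94, 0.76, 0.44 and 0.91 FPKM in high Pi mice, against 0.98, 1.05, 1.57 and 1.31 FPKM in normal Pi mice. Its log2 fold change was -0.08 with all mice (limma-trend adjusted p = 0.961) and -0.39 without high Pi replicate 1 (adjusted p = 0.127). Ube2c, the ubiquitin-conjugating enzyme of the anaphase-promoting complex and the most abundant of the 11, had 8.53, 2.76, 2.51 and 4.45 FPKM in high Pi mice, against 4.08, 5.60, 4.07 and 3.16 FPKM in normal Pi mice. The order of the mice was looser here, since high Pi replicate 4 lay inside the normal Pi range. Cdc20, its activator, averaged 1.96 ± 1.39 FPKM in high Pi mice and 1.57 ± 0.426 FPKM in normal Pi mice (SD, n = 4 each).

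The checkpoint kinase Bub1 had 0.31 FPKM in high Pi replicate 1, 0.07 to 0.09 FPKM in the other high Pi mice and 0.11 to 0.18 FPKM in normal Pi mice. Its relative Bub1b had 0.98 FPKM in high Pi replicate 1, 0.24 to 0.54 FPKM in the other high Pi mice and 0.42 to 0.56 FPKM in normal Pi mice. Aurkb and Birc5 encode subunits of the chromosomal passenger complex, Plk1 a kinase of mitotic entry, and Cenpa the histone H3 variant of centromeres. Aurkb had 1.32 FPKM in high Pi replicate 1 and at most 0.65 FPKM in any other mouse. Plk1 had 2.79 FPKM there and at most 1.43 FPKM elsewhere, and Cenpa had 2.11 FPKM there and at most 1.15 FPKM elsewhere. Birc5 was the mildest, with 4.29 FPKM there and 3.40 FPKM in the next mouse.

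Over the 40 members, high Pi replicate 1 held the highest value in 32, beside 32.2% of all genes. Taking the 11 mitosis genes with Ccna2, Ccnb1, Ccnb2 and Cdk1, a grouping made after the values were seen and so given with no test, high Pi replicate 1 held the highest value in 15 of 15. It was at least 1.5 times the next highest mouse in 14 of the 15, the exception being Birc5 at 1.26 times, beside 1.57% of all genes and 2.9% of the 5791 genes in the same range of levels. Relative to the mean of the other 7 mice its median was 2.68 times over these 15 genes, 1.3 times over the other 25 members and 1.08 times over all genes. The ratio was largest for Top2a (3.63), Ccnb1 (3.29), Ccnb2 (3.15), Ccna2 (2.95) and Aurka (2.93). Relative to the normal Pi mean, the median of the 15 genes was 2.35, 0.775, 0.621 and 0.903 in high Pi replicates 1 to 4, and 0.897 to 1.16 in the normal Pi mice. High Pi replicate 1 thus lay above, and the other 3 high Pi mice lay below, the mean of the normal Pi mice in this median. High Pi replicate 4 was still inside the range of the normal Pi mice.

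Deviations of single libraries ran with transcript length over 8821 genes, with a Spearman correlation of 0.3 in high Pi replicate 1, the same in normal Pi replicate 2, and -0.41 to -0.025 in high Pi replicates 2 to 4 and the other normal Pi mice. Of the 15 genes, 11 had at least 80% of their value in transcripts of known length and were used. Mki67 (0.0%), Top2a (53.6%), Bub1 (69.4%) and Aurka (79.7%) did not. Under 1500 bases the ratio of high Pi replicate 1 to the mean of the other 7 mice was 1.92 to 2.28 for Cenpa, Birc5 and Ube2c, beside a median of 0.947 over all genes of that length. Between 1500 and 2500 bases it was 2.34 to 3.29 for Ccnb2, Plk1, Cdc20, Ccnb1 and Aurkb, beside 1.03. Between 2500 and 4000 bases it was 2.95 for Ccna2 and 2.22 for Bub1b, beside 1.1, and above 4000 bases it was 2.23 for Cdk1, beside 1.17. The part of length in the pattern was not tested.

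**Figure D3:**
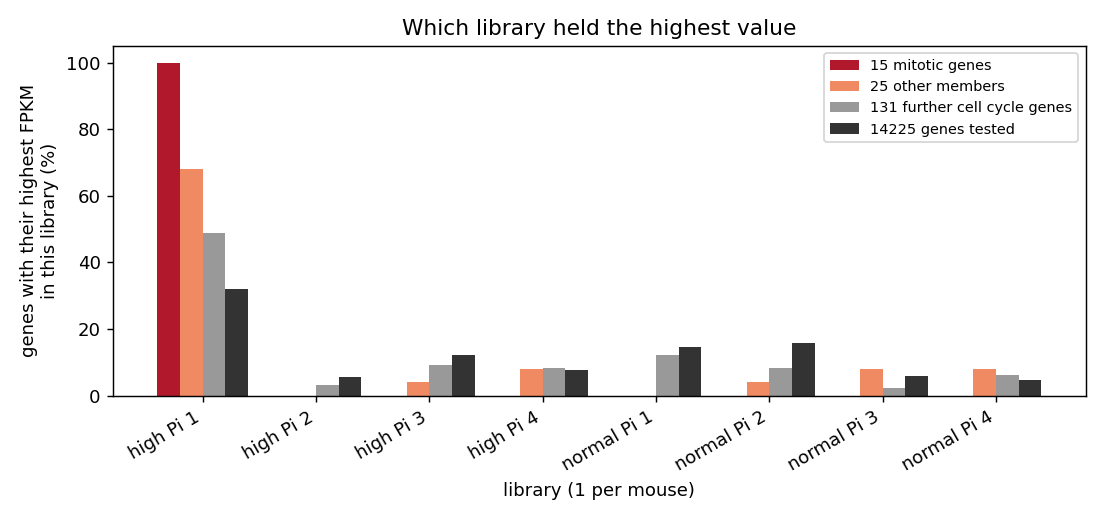
Share of genes (y axis, percent, from 0) whose highest FPKM of the 8 libraries fell in each mouse (x axis, high Pi then normal Pi), for the 15 mitotic genes, the 25 other members, 131 further cell cycle genes and all 14225 genes tested. High Pi replicate 1 holds all of the mitotic genes, 68.0% of the other members, 48.9% of the further genes and 32.2% of all genes.

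The CDK inhibitors hold cells out of the cycle. Cdkn1b, which encodes p27, had 13.06, 10.60, 8.97 and 10.52 FPKM in high Pi mice, against 11.01, 10.84, 10.74 and 11.60 FPKM in normal Pi mice, with a log2 fold change of -0.04 (adjusted p = 0.951 by limma-trend). The first was above all normal Pi mice and the other 3 were below them. Cdkn1a, which encodes the p53-induced inhibitor p21, had 5.17 to 8.20 FPKM in high Pi mice and 3.68 to 7.34 FPKM in normal Pi mice, with a log2 fold change of 0.16 (adjusted p = 0.867). Cdkn2c, which encodes the Cdk4 and Cdk6 inhibitor p18, had 4.74 to 7.31 FPKM in high Pi mice and 4.97 to 7.32 FPKM in normal Pi mice. E2f1, the activator of the replication genes, had 2.79, 1.79, 1.90 and 1.93 FPKM in high Pi mice, against 1.79, 1.93, 2.07 and 1.96 FPKM in normal Pi mice, so that only high Pi replicate 1 left the common range.

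Origins are licensed in G1 when Cdc6 and Cdt1 load the Mcm2 to Mcm7 helicase, and they fire with Cdc45. None of these 9 genes passed the test, and 8 had their highest value in high Pi replicate 1. Mcm7, the most abundant, had 9.91, 7.73, 7.83 and 7.42 FPKM in high Pi mice, against 8.01, 9.65, 7.72 and 8.07 FPKM in normal Pi mice. Mcm6 had 10.39, 6.22, 5.43 and 6.48 FPKM in high Pi mice, against 7.41, 8.18, 6.79 and 6.85 FPKM in normal Pi mice. Mcm6 thus had the arrangement of Mki67, with 1 high Pi mouse above and 3 below all normal Pi mice, and Mcm7 had it in part. The log2 fold change of Mcm6 was -0.06 (limma-trend adjusted p = 0.951), and -0.24 without high Pi replicate 1 (adjusted p = 0.209).

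The other helicase subunits Mcm2, Mcm3, Mcm4 and Mcm5 had log2 fold changes of -0.08 to 0.07. Cdt1 had 4.62 FPKM in high Pi replicate 1, 2.80 to 2.89 FPKM in the other high Pi mice and 3.03 to 3.08 FPKM in normal Pi mice. Cdc45 averaged 1.33 ± 0.371 FPKM in high Pi mice and 1.24 ± 0.329 FPKM in normal Pi mice (SD, n = 4 each). Cdc6 was the exception to the pattern of high Pi replicate 1, with 0.26, 0.35, 0.08 and 0.25 FPKM in high Pi mice, against 0.22, 0.42, 0.47 and 0.45 FPKM in normal Pi mice. Its log2 fold change was -0.17 (adjusted p = 0.603 by limma-trend), at levels where few fragments stand behind each value.

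At the replication fork, Pcna, the sliding clamp of the DNA polymerases, had 31.99, 27.70, 23.90 and 24.38 FPKM in high Pi mice, against 27.75, 24.43, 24.63 and 29.24 FPKM in normal Pi mice. The diets overlapped, with a log2 fold change of 0.02 (adjusted p = 0.981 by limma-trend). Rrm1 and Rrm2 encode the subunits of ribonucleotide reductase, which makes deoxynucleotides. Rrm2 had 5.94 FPKM in high Pi replicate 1, 1.98 to 2.90 FPKM in the other high Pi mice and 2.28 to 3.49 FPKM in normal Pi mice. Rrm1 had 4.05 FPKM in high Pi replicate 1, 1.99 to 2.78 FPKM in the other high Pi mice and 2.48 to 3.12 FPKM in normal Pi mice. Tyms, thymidylate synthase, differed from them, with its highest value of 4.61 FPKM in high Pi replicate 4 and a log2 fold change of 0.14 (adjusted p = 0.725).

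**Figure D4:**
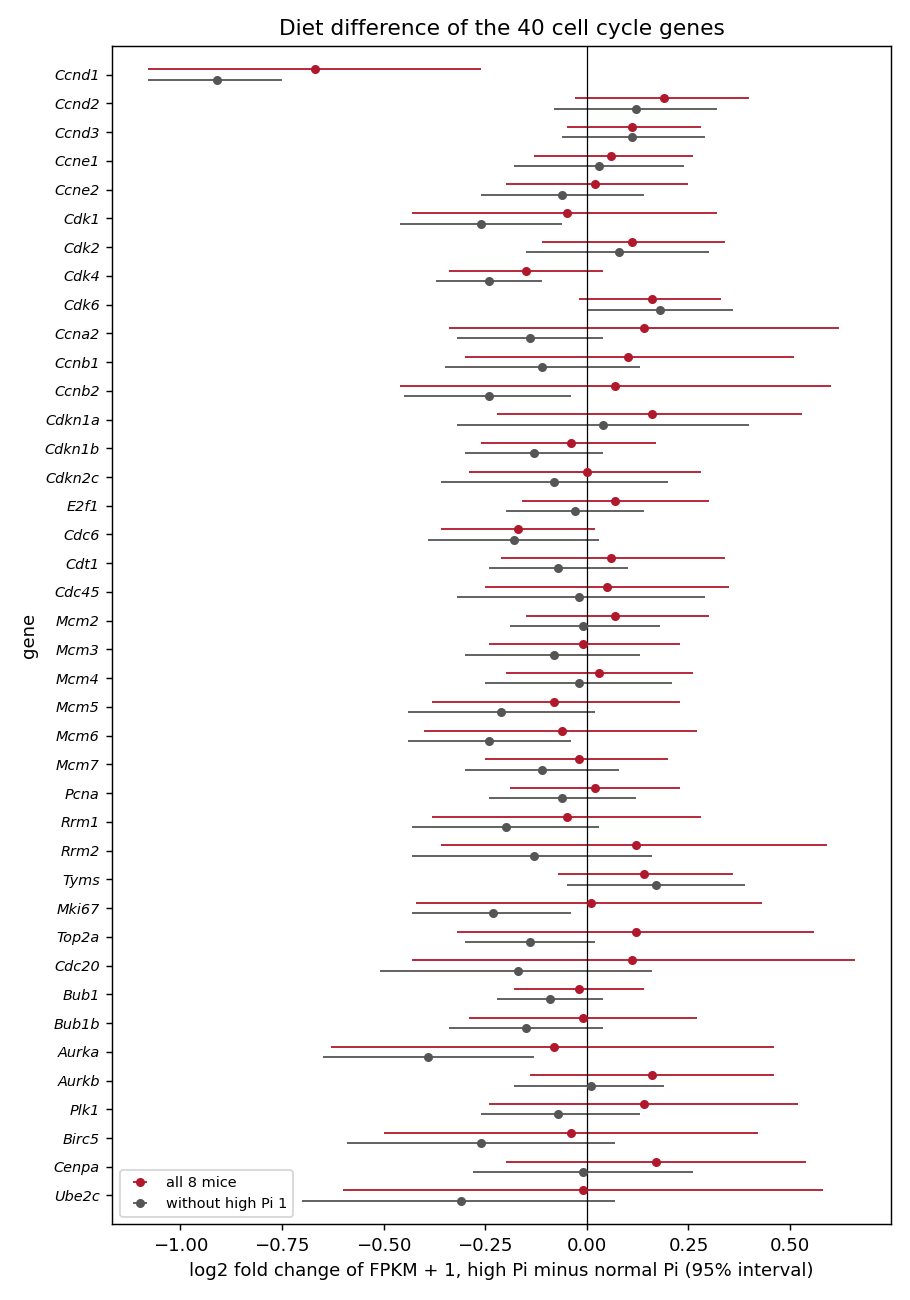
Log2 fold change of FPKM + 1, high Pi minus normal Pi, for each of the 40 members (rows) with all 8 mice and without high Pi replicate 1. Points are limma-trend estimates and bars are 95% intervals. With all 8 mice only the interval of Ccnd1 excludes 0, and without high Pi replicate 1 most points lie left of 0.

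Without high Pi replicate 1, the diets did not overlap for 10 members. In 9 of them every high Pi mouse was lower, namely Ccnd1, Cdk4, Cdkn1b, Cdt1, Mcm6, Mki67, Top2a, Bub1 and Aurka, beside 11.4% of all genes, and Cdk6 was higher, beside 4.75%. Bub1 had only 0.07 to 0.09 FPKM in these high Pi mice, under the minimum of 0.1 FPKM. No fragments were estimated for Mki67, Top2a, Bub1 and Aurka, so their counting error was not assessed. The 7 members lower at an unadjusted p under 0.05 were Ccnd1, Cdk4, Cdk1, Ccnb2, Mcm6, Mki67 and Aurka.

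Beyond the 40 members, 131 of 138 further cell cycle genes in 6 lists were tested. Past the adjusted threshold by limma-trend 1 was higher and 0 were lower, beside 0.12% and 0.0773% of all genes, and the median log2 fold change was 0.02. At an unadjusted p under 0.05, 6 were higher and 1 was lower, beside 4.43% and 4.63% of all genes. Without high Pi replicate 1, 1 was higher and 1 was lower past the adjusted threshold, beside 0.907% and 1.57% of all genes. The median was then -0.04, beside -0.03 over all genes. High Pi replicate 1 was the highest mouse for 73.7% of 38 spindle, kinetochore and cytokinesis genes and 55.6% of 18 genes of mitotic entry and checkpoints. The shares were 37.9% of 29 fork genes, 33.3% of 18 E2F, RB and DREAM genes, 17.6% of 17 pre-replication genes and 54.5% of 11 other G1 regulators. The excess over the 32.2% of all genes was thus greatest in the spindle list, and the pre-replication list lay below that share.

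The gene that passed was Spc25, a subunit of the Ndc80 kinetochore complex, with 20.46, 17.43, 19.7 and 21.71 FPKM in high Pi mice, against 14.98, 13.48, 11.79 and 13.53 FPKM in normal Pi mice. Every high Pi mouse was higher than every normal Pi mouse, with a log2 fold change of 0.53 (adjusted p = 0.0458 by limma-trend). That call was lost with no minimum, with the replicate block and on leaving out any of the 7 mice besides high Pi replicate 1, in all 9 alternatives, where the log2 fold change was 0.47 to 0.59 and the adjusted p 0.0511 to 0.172. Its level was several times that of the mitotic members, and high Pi replicate 1 did not stand apart in it.

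Orc3, a subunit of the origin recognition complex, had 14.07, 13.37, 13.29 and 13.49 FPKM in high Pi mice, against 17.25, 17.59, 16.31 and 15.45 FPKM in normal Pi mice. The diets did not overlap, but the log2 fold change of -0.28 did not pass (limma-trend adjusted p = 0.165), and without high Pi replicate 1 it was -0.29 (adjusted p = 0.0473). With median-of-ratios scaling as well it was -0.25 and no longer passed (adjusted p = 0.0633). The genes with the smallest p in the other lists also did not pass. They were Pole2, a subunit of DNA polymerase epsilon (log2 fold change 0.23), the mitotic kinase Nek2 (0.20), the DREAM subunit Lin52 (-0.14) and the growth regulator Myc (0.47, adjusted p = 0.222). Myc, which induces D-type cyclins and Cdk4 in many cells, had 4.37, 2.5, 3.74 and 3.21 FPKM in high Pi mice, against 1.96, 2.54, 1.98 and 2.28 FPKM in normal Pi mice.

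Of 19 tested p53 targets, 0 passed by limma-trend, while 4 were higher and 0 lower at an unadjusted p under 0.05, beside 4.43% and 4.63% of all genes. The smallest p belonged to Gdf15, a stress-induced cytokine, with 11.18, 10.39, 11.77 and 13.0 FPKM in high Pi mice, against 7.99, 8.56, 9.48 and 7.28 FPKM in normal Pi mice. The diets did not overlap, with a log2 fold change of 0.43 (adjusted p = 0.129). Without high Pi replicate 1 it passed, at 0.45 (adjusted p = 0.044 by limma-trend). It was the only p53 target that did, beside 2.48% of all genes.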

How the data were processed

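Kidney cortex mRNA of 8 mice was sequenced on the BGI DNBSEQ platform. The authors deposited FPKM per gene and per transcript, already scaled to each library; HISAT, Bowtie2 and the build GRCm38.p6 come from the submitters' processing notes, and their versions and the counting step are not given in the sources used here. Groups and replicate numbers came from the sample labels, and the 3 days from the study's methods. The day is not in the labels.

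The deposited FPKM were not counts, so log2(FPKM + 1) was tested with limma-trend (limma 3.58.1, R 4.3.3) as the high Pi mean less the normal Pi mean, with all 8 libraries and no covariate. Genes entered where 4 or more libraries reached 0.1 FPKM (14225 genes). P-values were adjusted by Benjamini-Hochberg over all of them, with a threshold of 0.05. The fit was tested on simulated data. Nothing in the labels says how the mice were housed or processed, so p-values measure the spread between these mice. Depth was estimated from the steps between low FPKM values of genes with 1 transcript of known length, with 90 bases subtracted from the length, and so depends on that choice. For members with under 80% of their value in transcripts of known length no fragments were estimated. Promoter sequences and gene coordinates are RefSeq's. Other steps ran in Python 3.11.15 (pandas 2.3.3, numpy 2.4.6, scipy 1.17.1), with plots by matplotlib 3.10.9.

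The members and gene lists were chosen with earlier results of these data known. Values in each mouse are given for members with an unadjusted p under 0.05 or without overlap between diets, and for the highest member of each role group. Of each further list, genes past the threshold, or else the gene with the smallest p, are named. Other members given mouse by mouse (Cdk1, Ccnb2, Mcm6, Mki67, Top2a, Aurka and Cdc6) were added once their values had been seen. Alternative settings were a minimum of 0.5 FPKM, no minimum, a pseudocount of 0.1, quantile normalization, median-of-ratios scaling, library weights, a replicate block and leaving out each mouse. Leaving out high Pi replicate 1 together with median-of-ratios scaling or with a pseudocount of 0.1 was added after seeing the data.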

Additional observations from a re-analysis of the deposited data

Results flagged for a closer look

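In 16 of 80 groups of 4 mice (40 members, 2 diets), 1 mouse lay far from the other 3 by Dixon's criterion. Chance gives about 1 in 20 such groups where values are independent and normally distributed. Genes measured in the same mouse are not independent, and the same count over all genes was not made. High Pi replicate 1 was also the most distant library over all genes and held the highest value in 32.2% of them. The flags are thus not shown to be particular to the members. Of the 16, 12 were high Pi replicate 1, always above the other high Pi mice. They were Ccnd1 (55.59 FPKM, others 26.51 to 30.43), Ccna2 (3.46, others 0.93 to 1.19), Ccnb1 (1.51, others 0.27 to 0.48) and Ccnb2 (3.53, others 0.80 to 1.07). E2f1 (2.79 FPKM, others 1.79 to 1.93), Cdt1 (4.62, others 2.80 to 2.89), Mcm2 (6.50, others 4.87 to 5.13) and Mcm7 (9.91, others 7.42 to 7.83) followed. The rest were Mki67 (2.24 FPKM, others 0.53 to 0.74), Top2a (1.99, others 0.37 to 0.54), Bub1 (0.31, others 0.07 to 0.09) and Aurkb (1.32, others 0.46 to 0.56).

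The other 4 were single normal Pi mice, a different mouse for each gene. Ccne1 had 0.67 FPKM in normal Pi replicate 4 (others 0.33 to 0.34) and Ccne2 had 0.48 FPKM in replicate 1 (others 0.31 to 0.33). Cdk2 had 4.76 FPKM in replicate 2 (others 3.53 to 3.71) and Mcm5 had 2.51 FPKM in replicate 3 (others 2.02 to 2.07).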

How the results depend on the processing

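With 4 mice per diet, 1 library decided many signs. Among all genes, 17 were higher and 11 lower past the threshold. These counts were 6 and 2 with no minimum, 154 and 182 with library weights, and 3 to 129 and 1 to 224 when a mouse was left out, the highest without high Pi replicate 1. Without that mouse they were 169 and 142 with median-of-ratios scaling and 122 and 226 with a pseudocount of 0.1. Members lower numbered 0, and 1 (Ccnd1) with library weights, without high Pi replicate 1 and under both of those combinations, so 0 to 1 when a mouse was left out. Members higher stayed at 0. Further cell cycle genes higher numbered 1, 0 with no minimum, 0 to 1 when a mouse was left out, and 2 without high Pi replicate 1 with median-of-ratios scaling. Those lower numbered 0, 1 with library weights, 0 to 1 when a mouse was left out, and without high Pi replicate 1 they were 1 (Orc3) with a pseudocount of 0.1 and 0 with median-of-ratios scaling.

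Signs of log2 fold changes turned with library weights for Ccna2 (-0.02), Ccnb2 (-0.10), E2f1 (-0.01), Mki67 (-0.12), Pcna (-0.07) and Top2a (-0.03). Mki67 turned with a pseudocount of 0.1 (-0.06) and quantile normalization (-0.02), and Ube2c with the last (0.0092). Without high Pi replicate 1, median-of-ratios scaling gave -0.12, -0.22, -0.0026, -0.21, -0.02 and -0.13 for Ccna2, Ccnb2, E2f1, Mki67, Pcna and Top2a, and a pseudocount of 0.1 gave -0.24, -0.43, -0.05, -0.47, -0.06 and -0.34. Leaving out a mouse gave -0.14 to 0.26 for Ccna2, -0.24 to 0.20 for Ccnb2, -0.03 to 0.12 for E2f1, -0.23 to 0.13 for Mki67, -0.06 to 0.07 for Pcna, -0.14 to 0.23 for Top2a and -0.31 to 0.17 for Ube2c. It gave -0.39 to 0.09 for Aurka, -0.26 to 0.04 for Cdk1, -0.13 to 0.04 for Cdkn1b, -0.24 to 0.04 for Mcm6 and -0.11 to 0.04 for Mcm7. The cause was not tested. Over 22 named genes, 317 values kept their direction and side of the threshold and 41 turned. A further 7 kept their direction and came to pass the threshold, and 9 kept it and no longer passed.

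With the replicate number as a block, 4 genes were higher and 1 lower, and 0 further cell cycle genes were higher. Correlations of the deviations of same-numbered mice were -0.228, 0.0129, 0.0456 and -0.143. Those of differently numbered mice were -0.203 to 0.298. Same-numbered mice thus did not deviate together more than others, but so few values cannot decide whether the numbers pair them.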
